A study of Homo sapiens with 12 samples.

Results

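MIRLET7BHG is the long noncoding transcript of human chromosome 22 that carries the hairpins of let-7a-3 and let-7b, and the hairpin of miR-3619 lies in its introns. NONO peaks named MIRLET7BHG or MIR3619 by the authors' annotation were treated as 1 locus. They numbered 664 of the 26351 peaks in 6 lists, 662 under the host name and 2 under MIR3619. The locus was chosen by its peak count, since it held the most peaks when the lists were pooled, ahead of C22orf34 with 567, so its rank and its total are a description and not a finding. All 664 peaks lay on the plus strand, the strand of the host. Most of them, 573 (86.3%), were annotated as distal noncoding intron, that is more than 500 nt from a splice site, 59 as proximal noncoding intron, 30 as noncoding exon and 2 as miRNA.

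The data are an eCLIP study of NONO in 22Rv1, an established human prostate cancer line, and the labels of these libraries name no genetic change. In eCLIP, UV light links proteins to RNA, the protein is pulled down with an antibody, and each pull-down library is set against a matched input library. Cells of all 3 groups received 0.04% DMSO for 4 h, alone or with 20 µM SKBG-1(R) or 20 µM SKBG-1(S), and were crosslinked at 400 mJ. The dose is that of the treatment protocol, while the submitters' names for the compound lists carry the number 10 without saying what it stands for. SKBG-1(R) and SKBG-1(S) are mirror-image forms of the same small molecule, and the study's title presents the molecules as directed at NONO. Each group had 2 replicates, and each replicate gave 1 peak list. SKBG-1(R) replicate 2 stands apart as by far the longest list, with 14847 peaks against 669 to 3967 in the others. Nothing in the labels ties the replicates to separate cultures, and the tests below therefore cover the spread between these libraries, which may be technical.

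NONO is a nuclear RNA-binding protein that works as a partner of SFPQ and PSPC1, binds many introns, and has been described on primary microRNA transcripts. A microRNA starts as a hairpin within a long primary transcript, is cut out in the nucleus by DROSHA and DGCR8, and is trimmed by DICER1 before AGO proteins carry it to messenger RNAs. The let-7 family is known for holding back growth genes such as the RAS genes, HMGA2 and CCND1.

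The host gene (ENSG00000197182.14, a lincRNA) runs from chr22:46053869-46113928 on the plus strand of GRCh38, 60060 nt in all, with 4 transcripts in GENCODE 29. The longest, MIRLET7BHG-202, begins at the far 5′ end with an intron of 44005 nt, while the RefSeq gene and 2 of the other transcripts begin about 32.1 kb further on, at 46085997 to 46086003. RefSeq held all 4 hairpins of the host. The 4 leading mature products are shown because they set what the locus can make, with the seed, bases 2 to 8, in capitals.
let-7a-5p: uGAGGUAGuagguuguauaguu
let-7b-5p: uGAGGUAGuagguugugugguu
miR-3619-5p: uCAGCAGGcaggcuggugcagc
miR-4763-3p: aGGCAGGGgcuggugcugggcggg
The let-7 products share the seed GAGGUAG, which 11 of 2370 mature microRNAs in the RefSeq table carry, 8 of them named let-7. Counted from the 5′ end, let-7a-5p and let-7b-5p differ by A17G and A19G, outside the seed. The seed of miR-3619-5p was shared with miR-214-3p and miR-761, and that of miR-4763-3p with no other entry.

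The hairpins themselves held few peaks. They are printed with the bases that lay under a peak of any list in capitals.
MIR3619: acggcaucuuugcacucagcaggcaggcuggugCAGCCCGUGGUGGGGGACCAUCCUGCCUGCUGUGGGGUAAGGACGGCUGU
MIRLET7A3: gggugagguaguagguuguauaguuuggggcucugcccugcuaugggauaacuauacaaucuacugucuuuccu
MIR4763: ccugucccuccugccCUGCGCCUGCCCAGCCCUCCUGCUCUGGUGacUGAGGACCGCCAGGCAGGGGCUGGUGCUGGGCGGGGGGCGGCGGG
MIRLET7B: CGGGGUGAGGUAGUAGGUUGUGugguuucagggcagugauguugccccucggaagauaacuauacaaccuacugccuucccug
MIR3619 (chr22:46091044-46091126) lay under a peak in both SKBG-1(R) lists and in no other list. The replicate 1 peak spanned 46091077 to 46091129 at a log2 enrichment over input of 3.63 and a −log10 p of 3.56, and the replicate 2 peak spanned 46091079 to 46091121 at 3.87 and 22.4. Both are the authors' values, and both peaks covered the 3′ arm with the whole of miR-3619-3p. In the other 4 lists the nearest peak was 125 to 854 nt from that hairpin. MIRLET7A3 (chr22:46112749-46112822) held no peak in any list, and its nearest peak was 59 nt away in SKBG-1(R) replicate 2, 527 nt away in SKBG-1(R) replicate 1, and 4243 to 4748 nt away in the other lists. MIR4763 (chr22:46113566-46113657) held 2 peaks and MIRLET7B (chr22:46113686-46113768) held 1, at log2 enrichments of 3.01, 3.53 and 3.86, all 3 in SKBG-1(R) replicate 2. The MIRLET7B peak covered the first 22 of 83 bases, which hold the seed of let-7b-5p. Those 3 peaks carry the hairpins' own names and are outside the 664. A list of peaks above a minimum sets no upper limit on binding where it holds none.

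**Figure D1:**
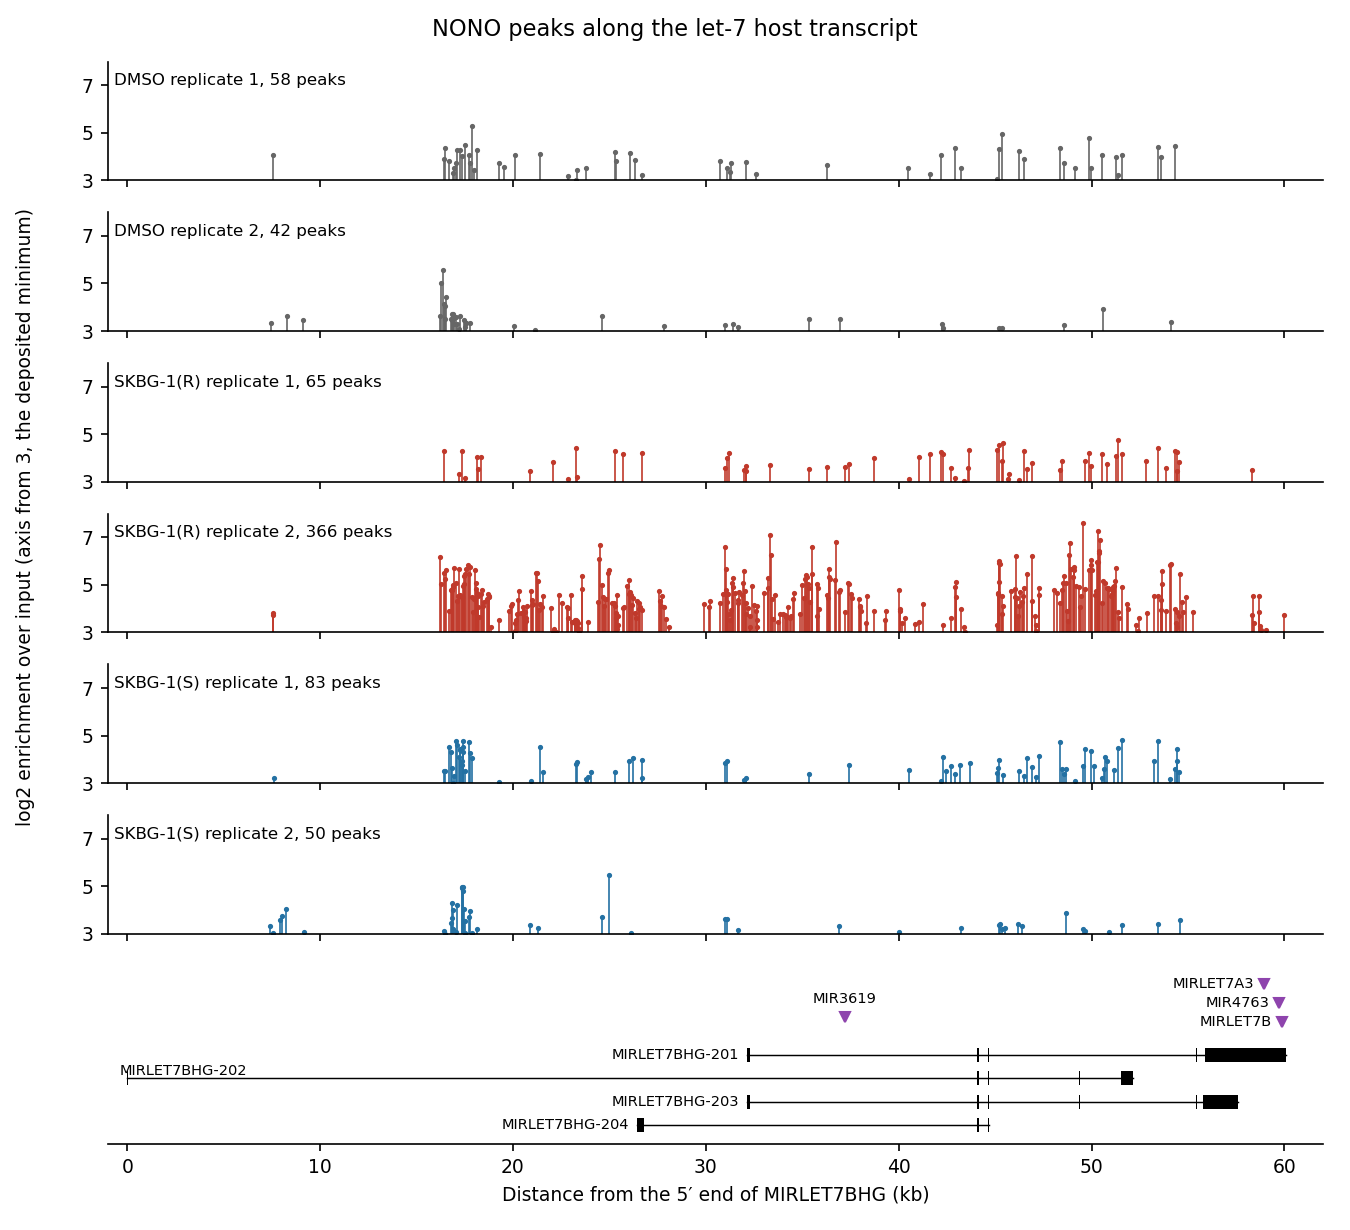
Each point is 1 peak of the locus, placed by its midpoint in kb from the 5′ end of MIRLET7BHG, at its log2 enrichment over input, with 1 panel per list. Below are the 4 GENCODE transcripts (boxes are exons) and the 4 hairpins (triangles). All 6 lists hold peaks near 17 kb, and SKBG-1(R) replicate 2 holds 366 of the 664 peaks.

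The number of locus peaks differed widely between lists, also within a treatment. Replicates 1 and 2 held 58 and 42 locus peaks in DMSO, 65 and 366 under SKBG-1(R), and 83 and 50 under SKBG-1(S). SKBG-1(R) replicate 2 alone held 55.1% of all locus peaks. Set against list length, the order changed. The locus took 8.67% of the DMSO replicate 1 list (95% Wilson interval 6.77 to 11.04) and 1.14% (0.846 to 1.54) of the replicate 2 list. Under SKBG-1(R) it took 3.33% (2.62 to 4.22) and 2.47% (2.23 to 2.73), and under SKBG-1(S) 6.71% (5.45 to 8.24) and 1.26% (0.957 to 1.66). The intervals cover counting error only. Replicate 1 had the higher share in every group, by 7.59-fold in DMSO, 1.35-fold with SKBG-1(R) and 5.32-fold with SKBG-1(S), and replicate 1 was in every group the shorter list. The locus ranked first among genes in 4 lists, at rank 9 in DMSO replicate 2 and rank 5 in SKBG-1(S) replicate 2.

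**Figure D2:**
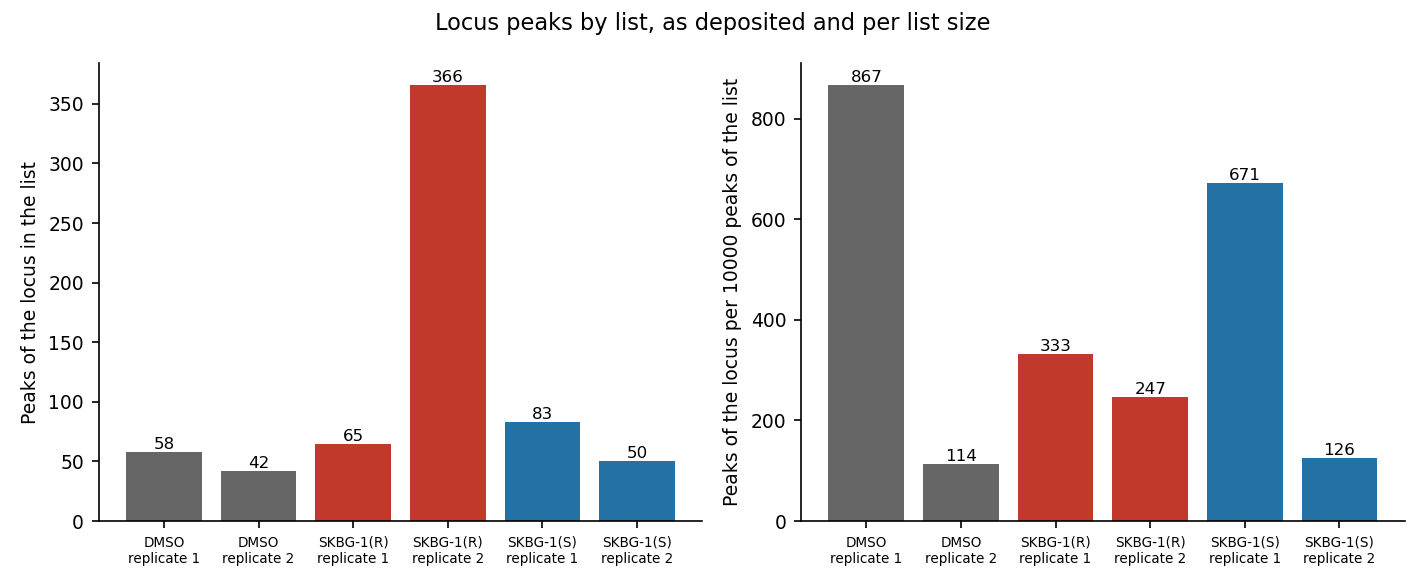
Bars give the peaks of the locus in each of the 6 lists, as deposited on the left and per 10000 peaks of the list on the right. The left panel is led by SKBG-1(R) replicate 2 with 366, the right panel by DMSO replicate 1 with 867 and SKBG-1(S) replicate 1 with 671.

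No difference between treatments in the share of peaks at the locus passed the test, for either form of the compound. Per 10000 peaks of the list, the locus held 491 ± 532 in DMSO, 289.7 ± 61.0 under SKBG-1(R) and 399 ± 385 under SKBG-1(S) (SD, n = 2 each), and the SKBG-1(R) and SKBG-1(S) values all lay between the DMSO pair. By limma on log2 values (prior count 2), with Benjamini-Hochberg adjustment over 478 genes, SKBG-1(R) against DMSO differed by -0.14 (95% interval -2.08 to 1.79, adjusted p = 0.991). SKBG-1(S) against DMSO differed by -0.12 (-2.05 to 1.82, adjusted p = 1), and SKBG-1(R) against SKBG-1(S) by -0.03 (-1.97 to 1.91, adjusted p = 0.995). The intervals are wide in both directions, so the lists do not show that the 2 forms act alike on the locus. Single lists set these values. For SKBG-1(R) against DMSO the difference was 1.30 without DMSO replicate 1, -1.58 without DMSO replicate 2 and 0.06 without SKBG-1(R) replicate 2. The background was 0% of genes called in each of the 3 comparisons, with 15, 6 and 5 of the 478 genes at an unadjusted p below 0.05. A Cochran-Mantel-Haenszel test, which counts every peak as independent, called 12.3%, 1.76% and 16.3% of genes in the same comparisons, and the locus was in none of these calls (log2 odds ratio of 0.22, -0.17 and 0.19, adjusted p of 0.504, 0.987 and 0.472). Within a replicate number the SKBG-1(R) share was 0.384 of the DMSO share for replicate 1 and 2.16 of it for replicate 2, so the direction was opposite in the 2 pairs. For SKBG-1(S) the same ratios were 0.774 and 1.10.

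Peaks lay further towards the 3′ end of the host in both SKBG-1(R) lists than in both DMSO lists, a contrast whose exact permutation p cannot fall below 0.333 with 2 lists against 2. Position was measured from 0 at the 5′ end of MIRLET7BHG to 1 at its 3′ end, at each peak's midpoint. The median was 0.478 and 0.289 in DMSO, 0.711 and 0.553 under SKBG-1(R), and 0.623 and 0.300 under SKBG-1(S), for replicates 1 and 2. The SKBG-1(R) and DMSO values did not overlap, while the SKBG-1(S) values overlapped those of both other groups. The SKBG-1(R) mean exceeded DMSO by 0.249 (exact two-sided permutation p = 0.333, which is the smallest that 2 lists against 2 can give), by 0.233 in replicate 1 and 0.264 in replicate 2. Without SKBG-1(R) replicate 2, the list that stands apart, the difference was 0.328. It was 0.148 with the mean position in place of the median, and 0.144 after joining peaks within 50 nt, a setting chosen after seeing the data. SKBG-1(S) exceeded DMSO by 0.078 and lay 0.171 below SKBG-1(R), with an exact permutation p of 0.667 for each. The latter difference was 0.0973 with means and 0.0599 after joining. The adjusted p was 0.667 for all 6 comparisons of position and enrichment. Replicate 1 lay further 3′ than replicate 2 in every group, by 0.158 to 0.323, so the replicate number moved with position as well.

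Windows of 10 kb describe the same peak positions as the medians and so add no separate support. The window from 10 to 20 kb held 29.3% and 54.8% of locus peaks in DMSO, 26.5% and 40.0% under SKBG-1(S), and 10.8% and 13.9% under SKBG-1(R). In number, SKBG-1(R) replicate 2 held the most peaks of any list there, 51 against 7 to 23 in the others. The window from 30 to 40 kb held 18.5% and 25.1% in the SKBG-1(R) lists, above the 7.23 to 12.1% of the other 4. Downstream of the RefSeq start, in the stretch that shorter transcripts also cover, lay 41.4% and 21.4% of locus peaks in DMSO, 67.7% and 53.0% under SKBG-1(R), and 51.8% and 32.0% under SKBG-1(S). Both SKBG-1(R) values exceeded the other 4, in a further count of the same positions. The windows were looked at after the medians and were not tested on their own.

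**Figure D3:**
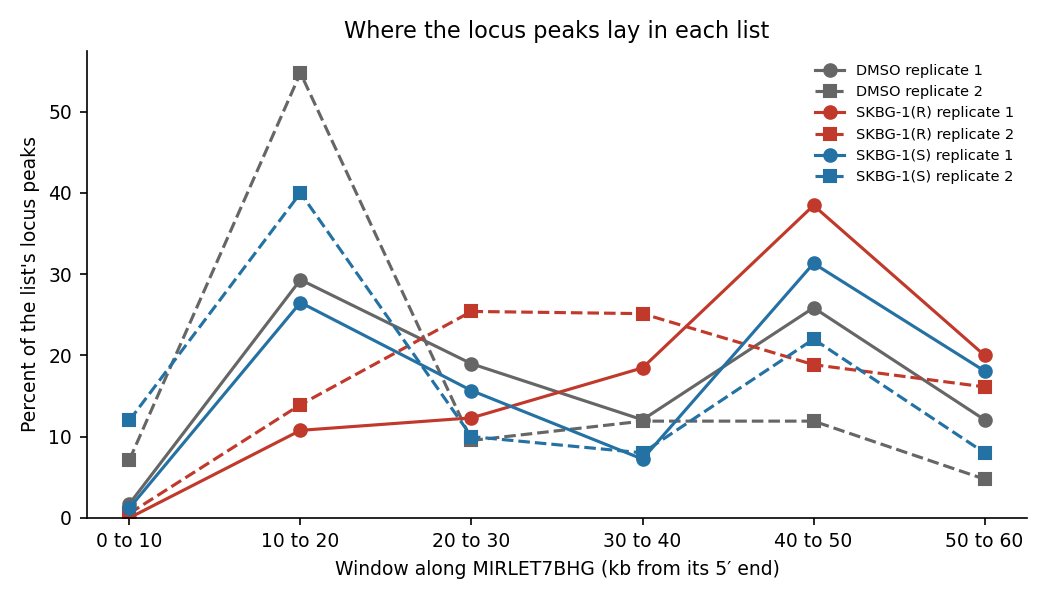
Lines give the percent of each list's locus peaks in windows of 10 kb from the 5′ end of MIRLET7BHG. Both SKBG-1(R) lists are the lowest at 10 to 20 kb and the highest at 30 to 40 kb.

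Few peaks under the locus names lay in the 5′ part of the host, in part because of how peaks there are named. The first locus peak began 7.39 kb in, 13 peaks lay before 10 kb, and the next began at 16.2 kb. Peaks over the very start of the host carry a joint name with the overlapping plus-strand gene RP6-109B7.3 and so fall outside the locus as defined. There were 1 and 3 of these in DMSO, 0 and 4 under SKBG-1(R), and 2 and 2 under SKBG-1(S). A further 7 peaks named RP6-109B7.3 alone began 0.562 to 2.492 kb into the host, all in replicate 2 lists, with 1 in DMSO, 5 under SKBG-1(R) and 1 under SKBG-1(S).

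The densest stretch lay just beyond that gap, inside the first intron of MIRLET7BHG-202 and upstream of every other annotated start. It was picked out after the values were seen, as the 2 kb with the most regions found in at least 4 lists, chr22:46070255-46072254. This stretch is 3.33% of the host and holds 9 of the 33 such regions. It contained 15 of 58 and 20 of 42 locus peaks in DMSO, 7 of 65 and 37 of 366 under SKBG-1(R), and 21 of 83 and 20 of 50 under SKBG-1(S). As a share of each list's locus peaks that was 25.9% and 47.6%, 10.8% and 10.1%, and 25.3% and 40.0%. The stretch lies within the window from 10 to 20 kb, so these shares draw on the same peaks. The SKBG-1(R) lists were the lowest pair, although SKBG-1(R) replicate 2 covered 75.4% of the bases there and the other lists 22.2 to 45.2%. The locus peak with the highest −log10 p lay in this stretch in 5 lists, and in SKBG-1(R) replicate 2 both of the 2 peaks tied at the cap did. The highest −log10 p was 25.3 and 34.0 in DMSO, 18.4 and 400 (the cap of the deposited values) with SKBG-1(R), and 35.1 and 73.8 under SKBG-1(S).

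Overlapping peaks were merged into 311 regions, which chain peaks and need not mark a single contact. Of these, 205 had a peak in 1 list, 46 in 2, 27 in 3, 20 in 4, 8 in 5 and 5 in all 6. Of the 13 regions in 5 or 6 lists, 7 began between 16.4 and 17.7 kb, 1 at 31.0 kb and 5 beyond 45 kb. The six-list regions were chr22:46070255-46070342, chr22:46071316-46071470, chr22:46084839-46085021, chr22:46099002-46099171 and chr22:46099187-46099307, all intronic. By its weakest list, the strongest of them was chr22:46084839-46085021. Its highest log2 enrichment was 3.51 and 3.24 in DMSO, 4.00 and 6.57 under SKBG-1(R), and 3.91 and 3.64 under SKBG-1(S). Both SKBG-1(R) values exceeded the other 4 there and at chr22:46099002-46099171, but not in the remaining regions of all 6 lists. SKBG-1(R) replicate 1 was the lowest list at chr22:46071316-46071470, with 3.14. It lay below DMSO replicate 1 at chr22:46070255-46070342 (4.30 against 4.35) and at chr22:46099187-46099307 (4.64 against 4.95). Of the regions in 5 lists, chr22:46071181-46071314 was the strongest by its weakest list, with 4.02 in DMSO replicate 1, 4.31 and 4.96 under SKBG-1(R), and 4.75 and 4.98 under SKBG-1(S), and no peak in DMSO replicate 2.

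**Figure D4:**
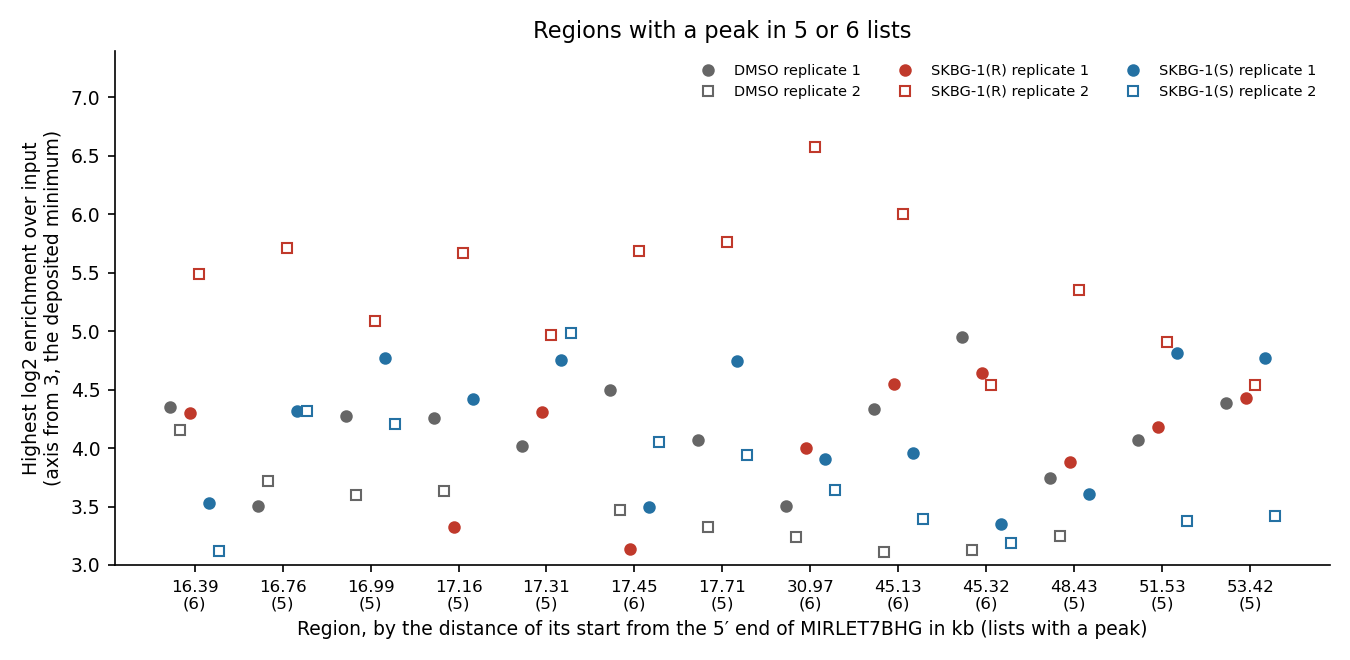
Points give the highest log2 enrichment of each list in the 13 regions with a peak in 5 or 6 lists, ordered by distance from the 5′ end of MIRLET7BHG. SKBG-1(R) replicate 2 is often the highest, up to 6.57 at the region 30.97 kb in.

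The DMSO lists did not overlap each other best. Of the 58 peaks of DMSO replicate 1, 13 overlapped a peak of DMSO replicate 2, 33 one of SKBG-1(R) replicate 1, 42 one of SKBG-1(S) replicate 1 and 53 one of SKBG-1(R) replicate 2, the longest list. As shares these are 22.4%, 56.9%, 72.4% and 91.4%, beside 34.2%, 62.03%, 64.0% and 57.6% for the list's peaks in other genes. Seen from the other lists, these were 15 of 42, 34 of 65, 47 of 83 and 88 of 366 peaks. For peaks in other genes the shares seen from those lists were 6.52%, 23.9%, 37.95% and 3.58%. SKBG-1(R) replicate 1 overlapped its own replicate most, in 56 of 65 peaks (86.2%, beside 53.3% for its peaks in other genes). That replicate is the longest list, and the DMSO and SKBG-1(S) lists also overlapped it most, in 83.3 to 91.6% of their locus peaks. The 86.2% therefore does not set the SKBG-1(R) pair apart. SKBG-1(S) replicate 2 overlapped its own replicate in 31 of 50 peaks, second to SKBG-1(R) replicate 2 with 44. Of its peaks in other genes, 18.1% overlapped its own replicate and 61.6% overlapped SKBG-1(R) replicate 2. SKBG-1(R) replicate 2 shared a region with another list for only 34.5% of its 287 regions, against 86.2 to 98.1% of the 29 to 65 regions in the other lists. Both DMSO lists had a peak in 10 regions, both SKBG-1(R) lists in 50 and both SKBG-1(S) lists in 18. Regions held by both replicates of 1 treatment alone numbered 0, 10 and 0. The SKBG-1(R) pair holds the longest list, and the part of list length in these counts was not tested. Regions of other genes were not counted in this way, so the counts do not set the locus apart from other genes. The 10 SKBG-1(R) regions were spread from 18.3 to 58.3 kb and include the one over the MIR3619 hairpin and chr22:46112177-46112243, in exon 5 of MIRLET7BHG-201 upstream of the let-7a-3 hairpin, with log2 enrichments of 3.50 and 3.72. The highest values of the locus were all in SKBG-1(R) replicate 2. They were 7.59 (192-fold) at chr22:46103373-46103434, 7.26 at chr22:46104213-46104229 and 7.12 at chr22:46087176-46087277. The first of these is the highest value of that list. Its region reached 3.70 and 3.19 in the SKBG-1(S) lists and had no peak in DMSO or in SKBG-1(R) replicate 1.

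Exons held few peaks, but some sites recurred. Between 0 and 21 peaks per list touched an exon. The exons of the 4 transcripts cover 5728 nt, of which peaks of the locus, those with a joint name left out, covered 2.37% and 0% in DMSO, 2.97% and 14.2% under SKBG-1(R), and 2.58% and 1.15% under SKBG-1(S). In the 5 lists with exonic locus peaks, bases under them were 71.2 to 78.4% G or C, against 63.6% of all exonic bases. Peaks with the joint name touched exon 1 of MIRLET7BHG-202 (chr22:46053869-46053920) in 4 lists, DMSO replicate 2, SKBG-1(R) replicate 2 and both SKBG-1(S) lists, and are not counted in these values. The 2 exonic sites of the locus itself found in 4 or more lists are shown with the bases of the region in capitals and up to 30 bases of the same exon on each side in lower case. The first is the start of exon 5 of MIRLET7BHG-202 (chr22:46105409-46105504 on the plus strand, GRCh38), where the region chr22:46105402-46105474 crosses the splice acceptor and had a peak in every list but DMSO replicate 2, with log2 enrichments of 3.38 to 4.90. The other lies in exon 1 of MIRLET7BHG-204 (chr22:46080468-46080629, plus strand) and had a peak in DMSO replicate 1, both SKBG-1(R) lists and SKBG-1(S) replicate 1.
Exon 5 of MIRLET7BHG-202: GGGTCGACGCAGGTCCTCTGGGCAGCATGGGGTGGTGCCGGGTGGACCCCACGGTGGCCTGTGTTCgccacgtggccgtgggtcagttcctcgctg
Exon 1 of MIRLET7BHG-204: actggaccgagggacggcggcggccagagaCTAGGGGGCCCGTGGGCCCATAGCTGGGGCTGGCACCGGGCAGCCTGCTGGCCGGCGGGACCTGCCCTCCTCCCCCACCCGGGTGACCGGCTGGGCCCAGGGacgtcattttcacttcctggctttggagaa
The capitals are 71.2% G or C in the exon 5 site and 79.4% in the exon 1 site.

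Another recurrent site lay just upstream of the RefSeq gene. The region chr22:46085906-46085990 ends 7 nt before the RefSeq start and had a peak in the same 4 lists as the exon 1 site. It is shown in capitals within the RefSeq promoter window of the host (chr22:46085747-46086046, plus strand, GRCh38.p14), because a peak there lies in introns of MIRLET7BHG-202 and MIRLET7BHG-204 and before the start of MIRLET7BHG-201 and MIRLET7BHG-203.
Promoter window: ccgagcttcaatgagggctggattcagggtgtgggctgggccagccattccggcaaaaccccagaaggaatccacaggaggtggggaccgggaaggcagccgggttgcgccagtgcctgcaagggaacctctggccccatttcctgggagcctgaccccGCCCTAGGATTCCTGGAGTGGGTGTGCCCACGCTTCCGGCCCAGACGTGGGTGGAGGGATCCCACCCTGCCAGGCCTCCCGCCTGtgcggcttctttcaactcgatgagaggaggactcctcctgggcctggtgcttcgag
The window is 65.3% G or C, against a median of 58.7% over 35116 RefSeq promoters of the same length, and the region within it 70.6%.

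Peaks of the locus had a lower median width than the other peaks of their list in all 6 lists. Their median width was 54 and 41 nt in DMSO, 55 and 36.5 nt with SKBG-1(R), and 49 and 43.5 nt with SKBG-1(S), against 68 and 73, 58 and 66, and 66 and 75 nt for the other peaks. The difference was negative in 6 of 6 lists, with a mean of -21.2 nt (SD 11.8, n = 6; exact sign-flip permutation p = 0.03125, two-sided, the smallest that 6 lists allow; 0.0625 adjusted over the 2 measures). It therefore missed the threshold of 0.05 after adjustment. Division of a stretch into more and narrower peaks raises the peak count, by which the locus was chosen. The width comparison is thus not independent of that choice and is a description. After joining peaks within 50 nt, chosen after seeing the data, the locus was wider in SKBG-1(R) replicate 2 (97 against 83 nt) and narrower in the other 5 lists. Against peaks in other noncoding introns, SKBG-1(R) replicate 1 went the other way, at 57 against 56.5 nt, and the locus was the narrower in the other 5 lists. Spacing of the locus peaks differed between lists. Joining peaks within 50 nt left 45 and 22 groups in DMSO, 48 and 107 under SKBG-1(R), and 52 and 30 under SKBG-1(S), or 1.29 and 1.91, 1.35 and 3.42, and 1.60 and 1.67 peaks per group. Other genes had 1.25 and 1.30, 1.43 and 1.52, and 1.37 and 1.37, so the locus was lower in SKBG-1(R) replicate 1 and higher in the other 5 lists, by little in DMSO replicate 1. Peaks per group draws on the number of peaks, by which the locus was chosen, so this comparison is a description only.

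No difference in enrichment at the locus passed a test, and those between treatments could not, with 2 lists against 2. Its median log2 enrichment over input was 3.84 and 3.45 in DMSO, 3.84 and 4.44 under SKBG-1(R), and 3.73 and 3.39 under SKBG-1(S). The other peaks of the lists had 3.72 and 3.59, 3.76 and 3.75, and 3.76 and 3.64. The locus was higher in 3 lists and lower in 3, by 0.08 on average (exact sign-flip permutation p = 0.75, n = 6), and by -0.04 without SKBG-1(R) replicate 2. Between treatments, SKBG-1(R) exceeded DMSO by 0.49 and SKBG-1(S) by 0.58, and SKBG-1(S) against DMSO differed by -0.08, with exact permutation p of 0.667, 0.333 and 0.667. The 0.333 is the smallest that 2 lists against 2 can give, and both SKBG-1(R) medians exceeded both SKBG-1(S) medians. Without SKBG-1(R) replicate 2 the differences of SKBG-1(R) from DMSO and from SKBG-1(S) were 0.20 and 0.28. In replicate 1 the medians of SKBG-1(R) and DMSO were equal to 2 decimals. The median −log10 p of locus peaks was 16.4, 32.9 and 14.0 in the replicate 2 lists of DMSO, SKBG-1(R) and SKBG-1(S), against 5.52, 7.0 and 6.0 for other peaks there, but 5.09, 4.86 and 6.54 in the replicate 1 lists, against 4.61, 5.06 and 4.85.

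**Figure D5:**
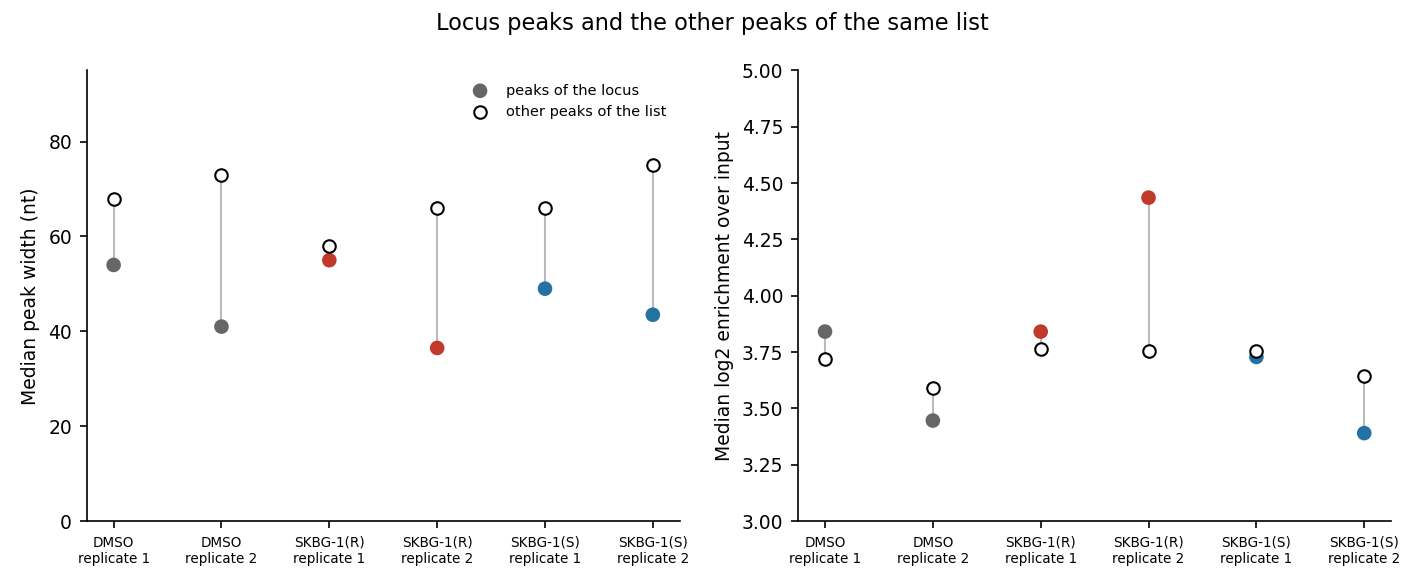
Filled points are the median width in nt (left) and the median log2 enrichment over input (right, axis from 3, the deposited minimum) of locus peaks in each list, and open points those of all other peaks of that list. Widths of the locus lie below those of the other peaks in all 6 lists, and enrichment lies above in 3 and below in 3.

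Among other transcripts of the let-7 pathway, few held peaks and none was called by limma in any comparison. Of 26 genes of microRNA processing and silencing, 5 held a peak. AGO2, the slicing Argonaute, led with 0 and 11 peaks in DMSO, 1 and 78 under SKBG-1(R), and 1 and 9 under SKBG-1(S), and was the only one with enough peaks to be tested (log2 difference of 0.91 for SKBG-1(R) against DMSO, adjusted p = 0.991 by limma). DGCR8, DICER1, ADAR and TNRC6B held 1 to 4 peaks each over all lists, and DROSHA held none. Of 29 let-7 targets, 8 held a peak and 4 were tested. CCND1, the cyclin that drives G1 progression, held 15 and 11 in DMSO, 56 and 169 under SKBG-1(R), and 21 and 4 under SKBG-1(S). The limma adjusted p of CCND1 for SKBG-1(R) against DMSO was 0.991, while the Cochran-Mantel-Haenszel test gave 0.000416. The latter test counts every peak as independent and called 12.3% of genes in that comparison. For SKBG-1(R) against SKBG-1(S) that test also called CCND1 (adjusted p = 1.6e-07) and EZH2 (0.0417), among 16.3% of genes. The limma adjusted p there was 0.995 for both. IGF2BP3 and EZH2 held 22 and 12 peaks over all lists, and IGF1R, IRS2, CDC34 and IGF2BP1 7, 5, 4 and 1.

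Since the locus was chosen for its peak count, the counts of other microRNA hosts are given as a description. Of the 22 listed hosts and hairpins of let-7 family members and their neighbours, only MIRLET7B held a peak, the 1 described above. The list includes MIRLET7A3 and MIRLET7B, hairpins of this host, so no let-7 entry from elsewhere held a peak under its listed symbol. Of 15 other hosts and nuclear noncoding RNAs, DLEU2, another microRNA host, held 85 peaks over all lists, LINC-PINT 50 and MIR17HG, host of an oncogenic microRNA cluster, 12, and none was called by limma. The Cochran-Mantel-Haenszel test called DLEU2 for SKBG-1(R) against SKBG-1(S) (log2 odds ratio -1.78, adjusted p = 1.04e-05). That test counts every peak as independent and called 16.3% of genes in this comparison. The limma adjusted p of DLEU2 there was 0.995. PVT1, NEAT1 and MALAT1 held 4, 2 and 2. Of 13 neighbours on chromosome 22, searched by symbol, MIR4763 and PPARA held 2 peaks each and GRAMD4 held 11, all in SKBG-1(R) replicate 2. The listed neighbour PRR34-AS1 (chr22:46053705-46057210, plus strand) held no peak under that symbol. Peaks named RP6-109B7.3, described above, lie within its span, also in DMSO and SKBG-1(S) lists. Among 8 prostate markers, TMPRSS2 held 5 peaks and SPDEF 55, and 5 markers held none, while the 6 markers of other cell types held none.

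The genes whose share of peaks followed the locus most closely over the 6 lists were OAZ1 (Pearson r = 0.96), ARFRP1 (0.96), KMT5A (0.94), RER1 (0.93) and POGZ (0.91), with 14 to 42 peaks each. The points share the list lengths, and 7 of 477 genes exceeded 0.9, so this is a description of 6 lists. OAZ1, the antizyme that limits polyamine synthesis, held 6 and 2 peaks in DMSO, 6 and 13 under SKBG-1(R), and 12 and 3 under SKBG-1(S), so that its share was higher in replicate 1 of each group, as at the locus. The genes next to the locus in number of peaks did not all share that order. C22orf34 held 30 and 137 peaks in DMSO, 28 and 235 under SKBG-1(R), and 54 and 83 under SKBG-1(S). Per 10000 peaks of the list these were 448 and 372, 143 and 158, and 437 and 209. Its share was thus higher in replicate 1 of DMSO and SKBG-1(S), as at the locus, and slightly lower in replicate 1 of SKBG-1(R). ANKRD11, a chromatin regulator, held 4 and 27, 64 and 261, and 19 and 84, and its share was higher in replicate 2 of DMSO and of SKBG-1(S). GSE1 and SLC7A5 held 498 and 399 peaks over all lists. The Cochran-Mantel-Haenszel test, which counts every peak as independent, called C22orf34 in every comparison. It called ANKRD11, GSE1 and SLC7A5 in some but not all, while limma called none of these genes.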

How the data were processed

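The authors deposited 1 peak list per pull-down library, called against its own input, without pooling replicates. The submitters' processing notes list cutadapt 1.9 and STAR 2.4.0i among their tools, while the peak caller is not given in the sources used here. For each peak the authors deposited a −log10 p and a log2 enrichment over input, both with a minimum of 3, and with a −log10 p cap of 400. The deposited lists hold no read counts, so depth is unknown and the 669 to 14847 peaks of a list set the precision. Coordinates are GRCh38, since 9797 of 9850 transcripts named in the lists (99.5%) had the same position within 1 nt in GENCODE 29.

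Groups and replicate numbers came from the sample titles. Peaks per gene were scaled to 10000 peaks of the list and fitted on the log2 scale (prior count 2) with limma 3.58.1 in R 4.3.3, with trended prior variance, all 6 lists in 1 fit, for 478 genes with at least 10 peaks. A Cochran-Mantel-Haenszel test on peak counts, other scalings, filters, equal list sizes and leaving out each list were the alternatives. Single values were compared over lists by exact permutation (scipy 1.17.1). Peaks sharing at least 1 nt on the same strand overlapped. The limma step was tested on simulated lists of equal length, with counting error only and large changes. The real lists differed in length and between replicates, so that test does not measure power or error here. Same-numbered lists deviated together (r of 0.54, 0.57 and 0.42 over 478 genes, for the 3 pairs of treatments). Replicate 1 was also the shorter list in every group. Values are therefore given within a replicate number as well, and with the number as a block. The main limma fit and the permutation tests between treatments left this pairing out. Named genes were the locus, the 4 genes next in peaks, the 5 most correlated genes, and members of fixed lists that held a peak. Regions were named if found in 5 or 6 lists, strongest, or close to a microRNA. The members and lists were chosen with earlier results of these data known. Sequences are RefSeq's (GRCh38.p14) or GENCODE's. Intronic sequence was not used here. Not every listed gene is reported here.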

Additional observations from a re-analysis of the deposited data

How the results depend on the processing

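No alternative gave the locus an adjusted p below 0.05 in any comparison of treatments. Of 70 values under the alternatives other than leaving out a list, 56 kept the direction and 14 did not, and the cause was not tested. The 56 include settings that cannot change the locus estimate, namely other minimum peak numbers per gene and the replicate block. For SKBG-1(R) against DMSO the log2 difference in locus peaks turned to 0.43 with TMM scaling, 1.61 with no scaling, 0.51 at a log2 enrichment of at least 4, 0.038 with equal list size and 0.22 by the Cochran-Mantel-Haenszel test. For SKBG-1(R) against SKBG-1(S) it turned to 0.47, 1.24, 0.72, 0.10 and 0.19 under the same settings, and to 0.16 with summed widths. For SKBG-1(S) against DMSO it turned to 0.37 with no scaling. TMM scaling shifted the median of all genes by 0.25 and 0.34 in the 2 SKBG-1(R) comparisons, and no scaling by 0.86 and 0.84. With equal list size, SKBG-1(S) against DMSO turned to 0.10 in median enrichment and to -0.0149 in median position. Without each list in turn, the locus differences ran from -1.58 to 1.30, -1.55 to 1.33 and -1.22 to 1.16, in the order SKBG-1(R) against DMSO, SKBG-1(S) against DMSO and SKBG-1(R) against SKBG-1(S). In the same order, position ran from 0.154 to 0.343, -0.0838 to 0.239 and 0.0095 to 0.333, and enrichment from 0.20 to 0.79, -0.28 to 0.11 and 0.28 to 0.88. Locus against other peaks ran from -0.045 to 0.14 in enrichment and -24.8 to -19.0 nt in width. With 5 lists the exact p cannot go below 0.0625. The width difference was -17.5 nt among distal noncoding introns and -17.3 nt after joining peaks within 50 nt, a setting chosen after seeing the data, where SKBG-1(R) replicate 2 was wider by 14 nt. With the replicate number as a block, the locus estimates stayed at -0.14, -0.12 and -0.03, which the balanced design fixes, and no call of the locus changed. The block moved the genes called for SKBG-1(R) against DMSO from 0 to 1. Leaving out SKBG-1(R) replicate 1 gave 23 called genes in each SKBG-1(R) comparison, and the Cochran-Mantel-Haenszel test called 59, 8 and 78. For SKBG-1(R) against DMSO, summed widths, joined peaks and leaving out DMSO replicate 2 called 1 gene each. At a log2 enrichment of at least 4, regions in 2 or more lists went from 106 to 42, in all 6 from 5 to 0, in both lists of DMSO, SKBG-1(R) and SKBG-1(S) from 10, 50 and 18 to 1, 15 and 2, and in both SKBG-1(R) lists alone from 10 to 4.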
